A study of Mus musculus with 8 samples.

Results

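The replication-dependent histone genes were followed in LT-HSCs of IκBα WT, HET and KO embryos by bulk RNA-seq. Members were the protein-coding genes whose symbol in GENCODE M21, on GRCm38, begins with Hist1h, Hist2h, Hist3h or Hist4h, and 67 of the 55487 genes in the count table met this rule. The samples were 3 WT, 3 HET and 2 KO pools of 500 LT-HSCs (LSK CD48- CD150+, the long-term repopulating hematopoietic stem cells), sorted from fetal liver at E14.5. HET and KO embryos carried 1 or 2 copies of the targeted *Nfkbia* allele (tm1Bal line, a germline loss of IκBα in every cell of the embryo), the methods use Gfi1:tomato mice in the same matings, the reporting summary also names the CDI-IGS wild type strain, and the labels do not give the strain of a sample. The labels give male sex and total RNA for WT1, WT2 and HET1, but female sex and polyA RNA for WT3, for HET2 and HET3, and for both KO samples, so that sex and molecule label cannot be told apart. The labels describe the same RNA isolation, long-distance PCR amplification of cDNA and library steps under both molecule labels. The methods name an mRNA ultralow input protocol for the bulk libraries and describe no separate protocol for total RNA. How the cDNA was primed is not given in the sources used here.

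Histones package DNA into nucleosomes. Pairs of H2A, H2B, H3 and H4 form the core around which the DNA is wound, and linker H1 binds where the DNA enters and leaves. Most histone protein is made during S phase from clustered, mostly intronless genes whose messages end in a short stem-loop in place of a poly(A) tail. SLBP binds this stem-loop, and the U7 snRNP with a cleavage complex cuts the message a few bases after it. Cells that leave the cell cycle can also make polyadenylated messages from some of these genes, by using a cleavage site further downstream.

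The 67 genes lie in 4 clusters, with 54 genes of Hist1 on chromosome 13, 10 of Hist2 on chromosome 3, 2 of Hist3 on chromosome 11 and *Hist4h4* on chromosome 6. By histone type they are 6 H1, 18 H2A, 18 H2B, 12 H3 and 13 H4 genes. A match to the histone 3′ stem-loop was searched for after the annotated stop codon, since this element tells the replication-dependent messages from others. It was found in 46 of the 67 genes and not found in 6, and the annotation of the other 15 ended too soon after the stop codon to be searched. The match began 22 to 59 bases after the stop codon (median 32). Among the 6, *Hist2h3b* and *Hist1h1a* had only 37 and 48 annotated bases there, so that a stem-loop of 16 bases could lie past their annotation. Among the genes with at least 75 annotated bases after the stop codon, 39 of 43 members (90.7%) held a match within these bases, against 2 of the 20282 other protein-coding genes (0.00986%), which were *H2afx* and *H2bfm*. The matches took 8 different forms. The form of 26 members was that of *Hist1h1c* and *Hist1h2ac*, 7 H4 genes shared that of *Hist1h4d*, 6 genes shared that of *Hist1h3c*, and *Hist1h4i* and *Hist2h4* shared another. The stem-loops are shown as RNA-strand DNA letters from the GENCODE M21 transcripts, 5′ to 3′, with the 16 bases of the element in capitals and 5 bases on either side, for genes whose levels are described next.
Hist1h1c: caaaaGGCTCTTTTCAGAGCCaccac
Hist1h2ac: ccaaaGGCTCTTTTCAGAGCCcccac
Hist1h2ab: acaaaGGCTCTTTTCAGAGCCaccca
Hist1h2bg: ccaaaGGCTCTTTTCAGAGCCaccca
Hist1h3d: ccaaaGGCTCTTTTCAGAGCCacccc
Hist1h4d: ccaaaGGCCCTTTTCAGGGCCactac
Hist1h4i: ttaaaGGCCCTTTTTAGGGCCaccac
Hist4h4: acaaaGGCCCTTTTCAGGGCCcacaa

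The annotation often ran on past the stem-loop. A gene was called extended if a transcript had an intron or more than 150 bases after the stop codon, and compact otherwise, which gave 28 extended and 39 compact genes. All 24 extended genes with a stem-loop had at least 38 annotated bases behind it, such as 840 in *Hist1h1c* (chr13:23738808-23740367, plus strand), 770 in *Hist1h4d* (chr13:23581598-23582735, plus strand) and 2010 in *Hist1h2ac* (chr13:23681467-23683948, minus strand). The 22 compact genes with a stem-loop had 74 or fewer. A poly(A) signal stood in the last 50 bases of 16 extended genes and of 1 compact gene. Of the 61 members with a RefSeq promoter (GRCm38.p6, 250 bases before to 50 after the start), CCAAT on either strand was present in 52 (85.2%) and TATAAA on either strand in 35 (57.4%), against 41.1% and 15.7% of all 27025 promoters. These letters describe the windows and were not tied to the levels.

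Histone cluster reads were rare in all 8 libraries. Of the 17895973 to 21720972 reads counted on genes per library, 3943 to 11219 fell on the 67 genes, which was 0.0200% (exact binomial 95% interval 0.0194 to 0.0206%) in HET3 and 0.0544% (0.0534 to 0.0554%) in WT2. Intervals on read counts cover counting error only. The smallest level that 3 reads could show was 0.125 to 0.178 CPM (counts scaled to library size by TMM). Reads on *Nfkbia*, the deleted gene, numbered 243 to 1621 in the 6 WT and HET libraries, 1 in KO1 and 0 in KO2. The summed level of 10 LT-HSC markers was 204 to 1894 CPM in the 6 WT and HET libraries and 1078 to 1710 CPM in the KO libraries, with WT3 (272 CPM) and HET3 (204 CPM) the lowest. These libraries were also the highest in 10 fetal hepatocyte markers, at 1542 CPM in WT3 and 789 CPM in HET3 against 50.0 to 311 CPM in the other 6, and none of these 20 markers was at 0 in all libraries. HET1 held 14906 CPM of 10 erythroid markers, against 769 to 5779 CPM elsewhere. In such pools, fewer cells of a type and less RNA per cell cannot be told apart.

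Summed over the 67 genes, the level was 439 CPM in WT1, 469 CPM in WT2 and 505 CPM in HET1, the libraries labelled total RNA. It was 263 CPM in WT3, 422 CPM in HET2 and 234 CPM in HET3, the WT and HET libraries labelled polyA RNA. It was 400 CPM in KO1 and 358 CPM in KO2, both labelled polyA RNA. Every WT or HET library of the total RNA label therefore lay above every one of the polyA RNA label, and the KO libraries lay between WT3 and HET2. By genotype alone the levels overlapped, with 390 ± 111 CPM in WT (SD, n = 3), 387 ± 139 CPM in HET (SD, n = 3) and 379 ± 29.4 CPM in KO (SD, n = 2).

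**Figure D1:**
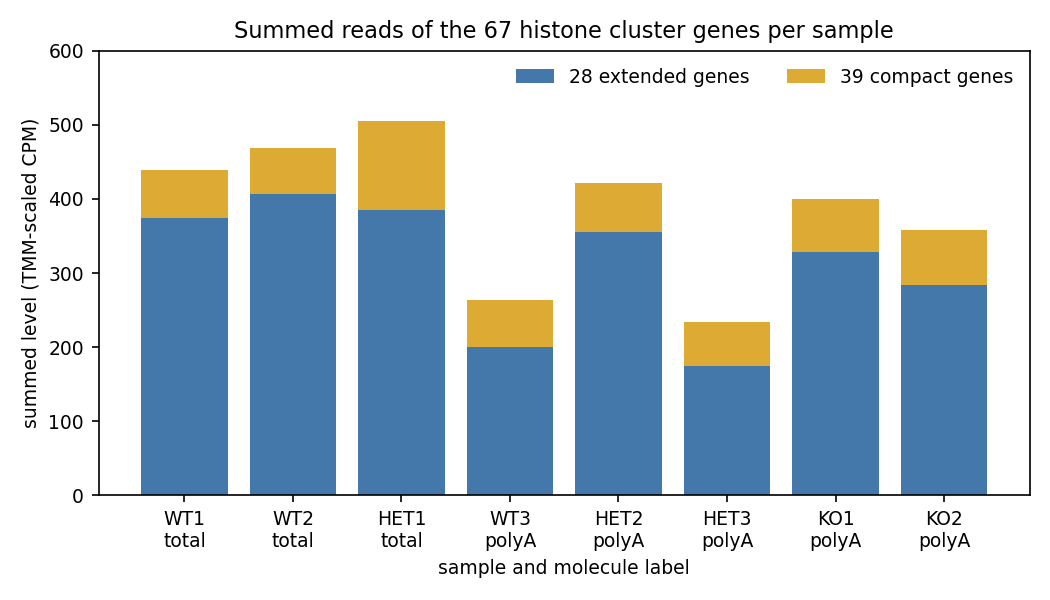
Summed TMM-scaled CPM of the 67 histone cluster genes in each of the 8 samples, stacked as 28 extended and 39 compact genes, with the molecule label under each sample. The extended part ranged from 175 CPM in HET3 to 407 CPM in WT2, and the compact part was 59.3 to 74.7 CPM in all samples but HET1 (119 CPM).

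The extended genes took 81.6% of the 62905 member reads, and their summed level was 375, 407 and 385 CPM in WT1, WT2 and HET1, 200, 355 and 175 CPM in WT3, HET2 and HET3, and 329 and 284 CPM in KO1 and KO2. The 39 compact genes together gave 64.4 CPM in WT1, 62.0 CPM in WT2, 62.8 CPM in WT3, 66.5 CPM in HET2, 59.3 CPM in HET3, 71.3 CPM in KO1 and 74.7 CPM in KO2, and only HET1, at 119 CPM, stood apart. *Hist1h1b* and *Hist1h1a* held 63.5% of the compact reads. The other 37 compact genes summed to 25.2, 27.3 and 43.6 CPM in WT1, WT2 and HET1, to 19.1, 21.6 and 16.2 CPM in WT3, HET2 and HET3, and to 24.4 and 32.5 CPM in KO1 and KO2. The molecule label thus did not separate the sums of all 39 compact genes in WT and HET, and did separate those of the 37 without these H1 genes. Since a longer gene collects more reads for the same number of messages, these sums were compared between libraries and not between the classes.

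Other RNAs that lack a poly(A) tail were looked at for the same libraries. Of 15 such genes listed, among them *Rmrp* and *Rpph1* (RNA parts of RNase MRP and RNase P), *Rn7sk* (an inhibitor of transcription elongation) and *Rnu7* (the U7 RNA of histone message processing), 8 were at 0 reads in all 8 libraries, *Rnu7* and *Rmrp* included, and 5 passed the filter. *Rn7sk* gave 4.26, 3.89 and 2.87 CPM in WT1, WT2 and HET1 and 1.30, 2.17 and 0.890 CPM in WT3, HET2 and HET3. *Rpph1* gave 0.234, 0.292 and 0.532 CPM in the first 3 and 1.09, 1.01 and 2.08 CPM in the others, the opposite order. The sum over all small nuclear, nucleolar and Cajal body RNA genes was 34.6, 41.8 and 63.0 CPM under the total RNA label and 47.2, 43.5 and 41.9 CPM under the polyA RNA label in WT and HET, so that these sums overlapped. Fragments below 200 bases were removed in library preparation, according to the labels, and the part of this step in the levels was not tested.

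Levels of single genes spanned from no read to more than 90 CPM. Reads of 6 genes were 0 in all libraries, and 54 of 67 genes had the 10 reads over all samples needed for testing. Sequence shared with other annotated genes went with the missing reads, and the counts hold uniquely mapped reads only. *Hist2h2aa1*, *Hist2h2aa2*, *Hist2h3c1*, *Hist2h3b* and *Hist2h2bb*, which have no stretch of 50 bases of their own among the annotated transcripts, were 5 of the 6 genes at 0. The other, *Hist1h2br*, had 11.3% of its stretches to itself. Not all of this sharing is between copies. *Hist2h2bb* shares its stretches with no other member, and most with *Gm20628*, whose exons overlap it. In *Hist2h3c1*, 65.3% of the stretches are shared only outside the members, and *Gm20634* covers its 1825 exon bases. For these genes, loss by unique mapping and loss by overlap cannot be told apart. Of the 13 untested genes, 11 had under 12% of their own. The 33 genes with at least 50% of their own stretches held 94.98% of the member reads. Since only 4 members had all stretches to themselves, reads can be lost by unique mapping or by overlap in nearly all of them. Exons of another gene overlap 24 members. Reads on such overlaps cannot be assigned without the strand used in counting, which is not given in the sources used here.

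**Figure D2:**
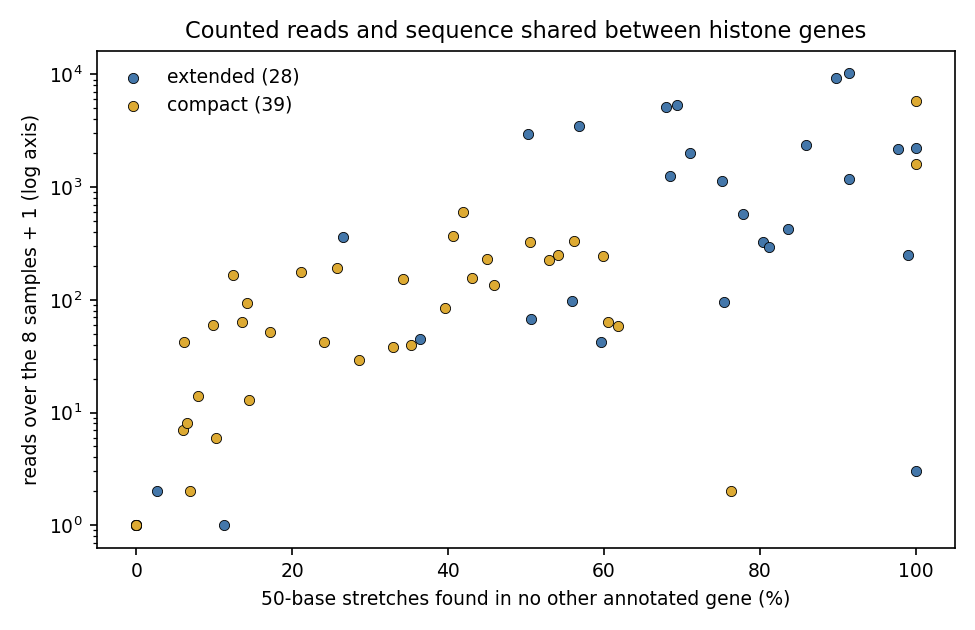
Reads summed over the 8 samples, plus 1 on a log axis, against the share of 50-base stretches of each histone cluster gene that occur in no other annotated gene, for the 28 extended and 39 compact genes. The 5 genes with no stretch of their own had no reads, and the 33 genes at 50% or more held 94.98% of all member reads.

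Per kb of exon, the highest mean levels over the 8 libraries belonged to *Hist1h4d* (an H4 gene, 50.1 CPM per kb), *Hist1h1b* (48.7 CPM per kb) and *Hist1h1c* (40.6 CPM per kb, both H1 genes). *Hist1h2ae* (H2A) followed at 29.99 CPM per kb, *Hist1h2bg* and *Hist1h2bc* (H2B) at 28.4 and 27.9 CPM per kb, and *Hist1h4i* (H4), *Hist1h1e* and *Hist1h1a* (H1) at 16.6, 16.4 and 13.6 CPM per kb. The next, *Hist1h2ab*, stood at 7.80 CPM per kb. The order at the top differed between libraries, with *Hist1h4d* the highest in 3 (WT1, WT2 and HET2) and *Hist1h1b* in the other 5. Of the 12 highest genes 9 were extended, and together they held 78.4% of the member reads. The highest H3 gene, *Hist1h3d*, was outside them at 5.51 CPM per kb. This ranking depends on the annotated exon length, which was 743 bases in *Hist1h1b* and 7425 bases in *Hist1h1d* (13.2 CPM, but 1.78 CPM per kb).

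**Figure D3:**
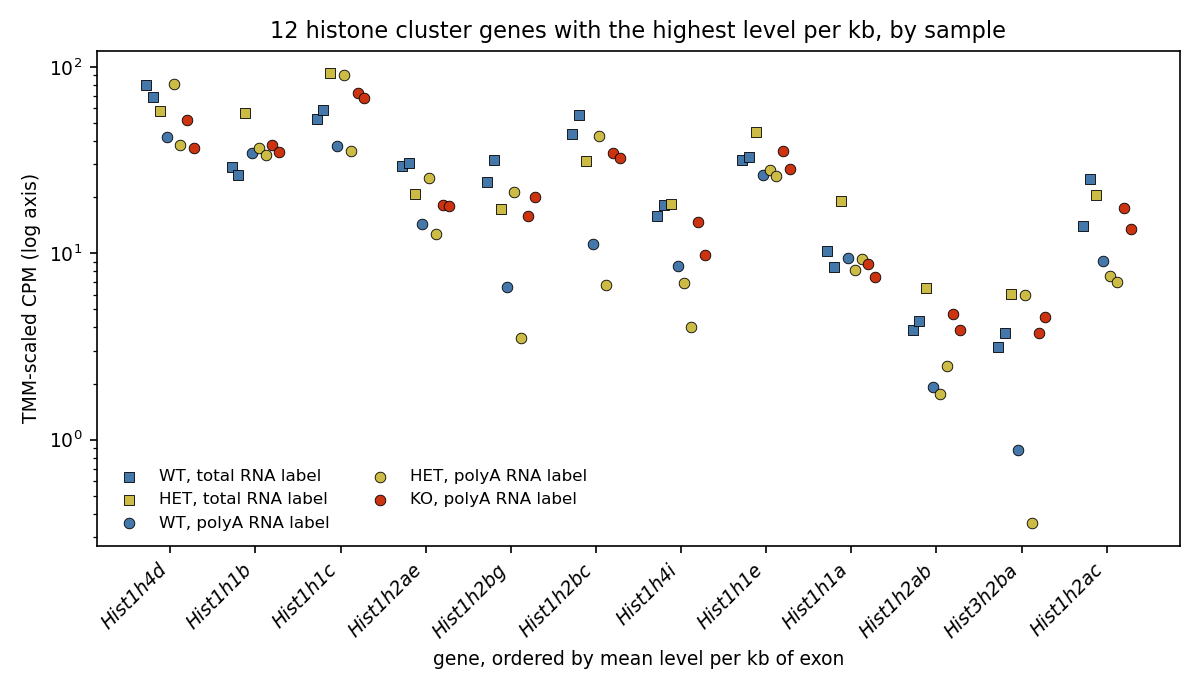
TMM-scaled CPM on a log axis of the 12 genes with the highest mean level per kb of exon, 1 point per sample, coloured by genotype, with squares for the total RNA label and circles for the polyA RNA label. For *Hist1h2bc*, *Hist1h2bg* and *Hist3h2ba* the 2 lowest points were WT3 and HET3, such as 11.2 and 6.76 CPM for *Hist1h2bc* and 0.885 and 0.356 CPM for *Hist3h2ba*.

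The comparison of the total RNA label with the polyA RNA label asked how far the label, and with it the sex of the embryo, went with the level of messages that mostly lack a poly(A) tail, in the 3 WT and 3 HET libraries. No member passed the edgeR test (adjusted p under 0.05 and absolute log2 fold change over 1), where 0.0146% of all 20610 genes did. DESeq2 called 5 members, all higher under the total RNA label (9.26%, near the 8.92% of all genes that were called). By edgeR, 10 of the 54 tested members were higher under the total RNA label at an unadjusted p under 0.05 (18.5%, against 10.7% of all genes), and 0 were lower (12% of all genes). Their median log2 fold change was 0.85, against 0.16 over all genes, and 48 of 54 were above 0 (88.9%, against 56.3%). The 3 libraries of the total RNA label lay above the 3 of the polyA RNA label in 17 members (31.5%, against 21.1% of all genes), and in no member below them (17.5% of all genes).

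Among the H1 genes, *Hist1h1d* was at 19.5, 18.8 and 16.1 CPM in WT1, WT2 and HET1 and at 7.92, 10.8 and 6.64 CPM in WT3, HET2 and HET3, which do not overlap. Its log2 fold change was 1.08 ± 0.32 (SE, edgeR, adjusted p = 0.176). *Hist1h1e* was at 31.7, 32.8 and 44.8 CPM against 26.2, 28.1 and 25.8 CPM in the same order, also without overlap, and differed by 0.52 ± 0.20 on the log2 scale (edgeR, adjusted p = 0.198). Its exons overlap those of *Hist1h2be* and *Gm11398* on the same strand. For *Hist1h1c* the order was broken by HET2. It stood at 52.2, 58.3 and 92.3 CPM under the total RNA label and at 37.5, 90.4 and 35.3 CPM under the polyA RNA label (0.56 ± 0.36, adjusted p = 0.378, edgeR). The H1 message with the least annotated sequence after its stop codon, *Hist1h1b* (chr13:21779883-21780625, minus strand), gave 29.0, 26.3 and 56.7 CPM against 34.3, 36.8 and 33.8 CPM, a log2 fold change of 0.19 ± 0.25 (edgeR, adjusted p = 0.686). *Hist1h1t*, a testis H1, had 2 reads in all.

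The H2A gene *Hist1h2ac* had the smallest p of the members. Its level was 14.0, 25.1 and 20.5 CPM in WT1, WT2 and HET1 and 9.11, 7.52 and 6.999 CPM in WT3, HET2 and HET3, and the groups did not overlap (1.30 ± 0.33 on the log2 scale, edgeR, adjusted p = 0.176). Within its exons lie *Gm24991* and *Gm44350*, small genes that share 108 bases on the same strand and 138 on the other. *Hist1h2ab*, a compact H2A gene, was at 3.88, 4.35 and 6.49 CPM against 1.93, 1.77 and 2.49 CPM (1.35 ± 0.46, edgeR, adjusted p = 0.185). It was the 1 compact gene of 30 tested with a p under 0.05 in this comparison, against 9 of 24 extended genes. Over all genes, 10.7% were higher and 12% lower at this p. The compact genes held 18.4% of the member reads, and *Hist1h1b* and *Hist1h1a* 63.5% of these, so that the classes also differed in depth. The median log2 fold changes of both classes were close, at 0.82 for compact and 0.88 for extended genes.

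The H2B gene *Hist2h2be* (chr3:96221119-96223738, plus strand), an extended gene in which no stem-loop was found, was at 22.1, 23.1 and 12.8 CPM under the total RNA label. It was at 4.11, 8.68 and 8.24 CPM under the polyA RNA label in WT and HET, which is below all 3 (1.52 ± 0.50, edgeR, adjusted p = 0.181). The other abundant H2B genes followed another order. *Hist1h2bc*, also without a stem-loop in its annotation, was at 43.5, 55.1 and 31.3 CPM in WT1, WT2 and HET1, at 42.8 CPM in HET2, and at 11.2 and 6.76 CPM in WT3 and HET3. *Hist1h2bg* was at 24.1, 31.6, 17.3 and 21.4 CPM in the first 4 at 6.56 CPM in WT3 and lower still in HET3. In both genes HET2, of the polyA RNA label, lay within the range of the total RNA label, and neither passed the test (edgeR, adjusted p = 0.3999 and 0.368). Without HET2 both were called (log2 fold changes of 2.17 and 2.18), among 7 members in all (13.0%, against 14.55% of all genes in that fit). Without HET1, 1 member was called, *Hist2h2be* (1.85%, against 7.19% of all genes).

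Among the H4 genes, *Hist1h4i* was at 15.9, 18.2 and 18.3 CPM in WT1, WT2 and HET1 and at 8.54, 6.96 and 4.03 CPM in WT3, HET2 and HET3, without overlap (1.37 ± 0.35, edgeR, adjusted p = 0.176). *Hist1h4d* was at 80.2, 69.2 and 57.8 CPM against 41.8, 80.7 and 38.2 CPM, where HET2 was the highest of all 6 (0.40 ± 0.37, edgeR, adjusted p = 0.536). *Hist4h4* ran the other way, with 3.56 CPM in WT1, 4.39 CPM in WT2 and 11.2, 7.62 and 7.41 CPM in the polyA RNA label, except that HET1 was the highest at 13.9 CPM (log2 fold change -0.30 ± 0.55, edgeR, adjusted p = 0.769). The H3 gene *Hist1h3d* was at 11.4, 11.9 and 8.46 CPM against 7.19, 3.43 and 4.57 CPM (0.89 ± 0.34, edgeR, adjusted p = 0.199). By histone type the median log2 fold change was 0.55 in H1, 1.002 in H2A, 1.23 in H2B, 0.56 in H3 and 0.50 in H4, all above that of all genes.

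The marker sums also differed between these libraries, but not in the order of the histone sums, which were highest in HET1 (505 CPM). WT1 and WT2 had the highest LT-HSC marker sums (1794 and 1894 CPM), WT3 and HET3 the lowest, and HET1 and HET2 lay close together between them, at 652 and 564 CPM. The hepatocyte sum was 52.9 to 149 CPM under the total RNA label and 215 to 1542 CPM in WT3, HET2 and HET3. The part of these markers in the label difference was not tested. Without WT3 and HET3, the 2 libraries lowest in LT-HSC markers, the median log2 fold change was 0.79 in the members and 0.009 over all genes. This fit leaves HET2 as the only library of the polyA RNA label. With genotype in the fit, that label difference rests on HET1 and HET2. When a single library was left out, the number higher at an unadjusted p under 0.05 was 4 without WT1, 4 without WT2, 8 without WT3, 2 without HET1, 16 without HET2 and 5 without HET3. In the same order, these fits called 1, 1, 2, 1482, 2998 and 2 of all genes. The counts of members are therefore not a result about the histone genes alone.

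**Figure D4:**
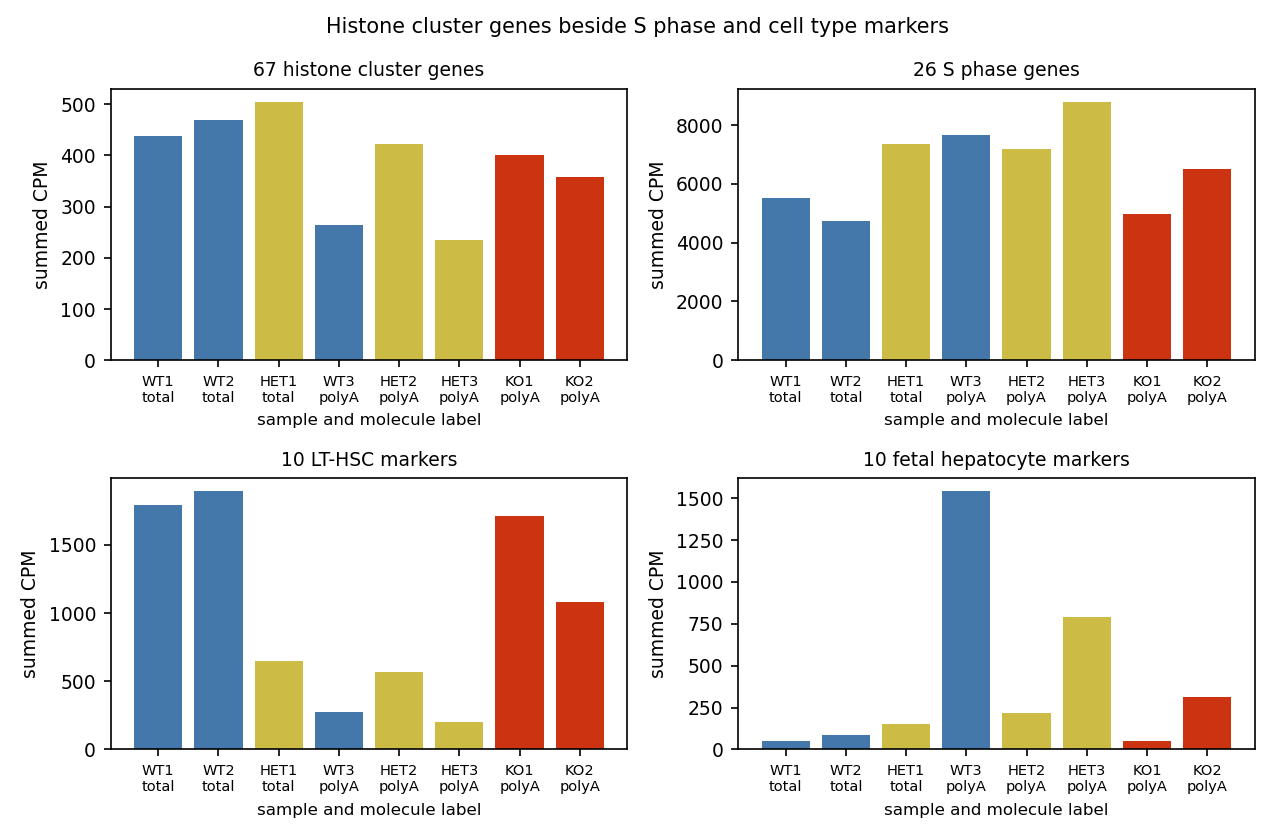
Summed TMM-scaled CPM per sample of the 67 histone cluster genes, 26 S phase genes, 10 LT-HSC markers and 10 fetal hepatocyte markers, with bars coloured by genotype (blue WT, yellow HET, red KO). WT3 and HET3 were the lowest of the 8 samples for histone cluster genes (263 and 234 CPM) and LT-HSC markers, and the highest for S phase genes (7655 and 8795 CPM) and hepatocyte markers.

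For KO against WT/HET, the study pooled WT and HET as the reference and fitted sex beside genotype. Since both KO libraries carry the polyA RNA label, the fitted difference rests on WT3, HET2 and HET3. No member passed the edgeR thresholds (0% of all 20610 genes did), and DESeq2 also called 0 members, where 9% of all genes were called. At an unadjusted p under 0.05, edgeR gave 5 members higher in KO (9.26%, against 15.7% of all genes) and 0 lower (9.48% of all genes). The median log2 fold change was 0.65, against 0.13 over all genes, and 38 of 54 were above 0 (70.4%, against 55.2%). Without sex in the fit the median was 0.066, and the mean summed level was 379 CPM in KO, 388 CPM over all 6 WT and HET libraries and 306 CPM over the 3 of the polyA RNA label.

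Of the 5, 4 encode H2A. *Hist1h2ac* was at 17.5 and 13.5 CPM in KO1 and KO2, above WT3, HET2 and HET3 (6.999 to 9.11 CPM) and within the range of WT1, WT2 and HET1 or just below it (14.0 to 25.1 CPM), with a log2 fold change of 0.97 ± 0.31 (edgeR, adjusted p = 0.152). *Hist1h2ab* was at 4.75 and 3.88 CPM in KO, against 1.77 to 2.49 CPM in the polyA RNA label and 3.88 to 6.49 CPM in the total RNA label (1.06 ± 0.44, edgeR, adjusted p = 0.183). In both genes the KO libraries were thus apart from the 3 references with their own label and not from the others. *Hist3h2a* was at 11.3 and 8.51 CPM in KO and at 5.94, 5.85 and 3.97 CPM in WT3, HET2 and HET3 (0.91 ± 0.39, edgeR, adjusted p = 0.196). It was at 10.2, 9.78 and 5.42 CPM in WT1, WT2 and HET1, which overlaps KO, and its exons share 708 bases with other genes on the same strand. *Hist2h2ab* had few reads, with 7 and 10 in KO1 and KO2 and 1 to 7 in each of the 6 other libraries, and was the only member with both KO libraries above all 6 others in CPM (1.85% of the tested members, against 3.05% of all genes). Its log2 fold change was 2.16 ± 0.90 (edgeR, adjusted p = 0.184), and 303 of its bases overlap *Gm15444* on the other strand.

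The fifth was the H4 gene *Hist1h4i*, at 14.8 and 9.79 CPM in KO1 and KO2 and 8.54, 6.96 and 4.03 CPM in WT3, HET2 and HET3 (0.91 ± 0.36, edgeR, adjusted p = 0.174). Its KO levels were below those of WT1, WT2 and HET1 (15.9, 18.2 and 18.3 CPM). *Hist1h4d* was at 51.7 and 36.9 CPM in KO, which overlaps the 3 references of the same label (-0.27 ± 0.34, edgeR, adjusted p = 0.636). *Hist4h4* was at 4.75 and 6.93 CPM in KO, under these 3 references and above WT1 and WT2 (-0.58 ± 0.61, edgeR, adjusted p = 0.567). By type, the median log2 fold change was 0.91 in H2A and 0.78 in H2B, with 10 of 12 and 13 of 15 genes above 0. In H1, H3 and H4 it was 0.26, 0.10 and 0.05, with 4 of 5, 5 of 10 and 6 of 12 genes above 0.

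The H1 genes and the abundant H2B genes did not pass the test. *Hist1h1c* was at 72.3 and 68.4 CPM in KO (0.37 ± 0.42, adjusted p = 0.601), *Hist1h1b* at 38.2 and 34.7 CPM (0.06 ± 0.32, adjusted p = 0.923), *Hist1h1e* at 35.4 and 28.3 CPM (0.26 ± 0.22, adjusted p = 0.477) and *Hist1h1a* at 8.71 and 7.47 CPM (-0.15 ± 0.39, adjusted p = 0.842), all by edgeR. *Hist1h1d*, at 14.0 and 12.1 CPM, lay above the 3 references of its label and below the other 3 (0.63 ± 0.29, edgeR, adjusted p = 0.211). *Hist1h2bc* was at 34.5 and 32.5 CPM and *Hist1h2bg* at 15.9 and 19.9 CPM in KO, between WT3 and HET3 on one side and HET2 on the other. Without HET2 the fit called *Hist1h2bc* (1.90 on the log2 scale, edgeR, adjusted p = 0.0417), which was 1.85% of the members, against 3.542% of all genes.

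Within the 5 libraries of the polyA RNA label alone, both KO libraries lay above the 3 references in 19 members (35.2%, against 27.1% of all genes) and below them in 3 (5.56%, against 21.4%). These 3 were *Hist4h4*, *Hist1h2bh* and *Hist1h2ag*, the last of which was picked after its values were seen. The fit on these libraries called 0 members (0% of all genes), with a median of 0.60 and 1 member at an unadjusted p under 0.05 (1.85%, against 12.6% of all genes), *Hist1h2ac*. WT3 and HET3, the libraries with the lowest histone and LT-HSC marker sums, are 2 of these 3 references. Without both, HET2 is the only reference left with the KO label, and the median over all members was 0.24, with 0 higher and 1 lower at an unadjusted p under 0.05. Leaving out a single library gave medians of 0.24 (without KO2) to 0.76 (without HET2). The number higher at this p was 2 without WT1, 1 without WT2, 3 without WT3, 4 without HET1, 8 without HET2 and 2 without HET3. In the same order, these fits called 0, 0, 0, 8, 730 and 0 of all genes, so that the counts are not a result about the histone genes alone. LT-HSC markers were higher in KO (10 of 10 at an unadjusted p under 0.05, against 15.7% of all genes, with a median log2 fold change of 2.76). The median of 6 megakaryocyte markers was 1.99, with 6 of 6 above 0 and 2 at this p. Hepatocyte markers had a median of -2.59, with 10 of 10 below 0, and erythroid markers a median of -1.27, with 8 of 10 below 0, none of either at this p. The part of these markers in the histone values was not tested.

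**Figure D5:**
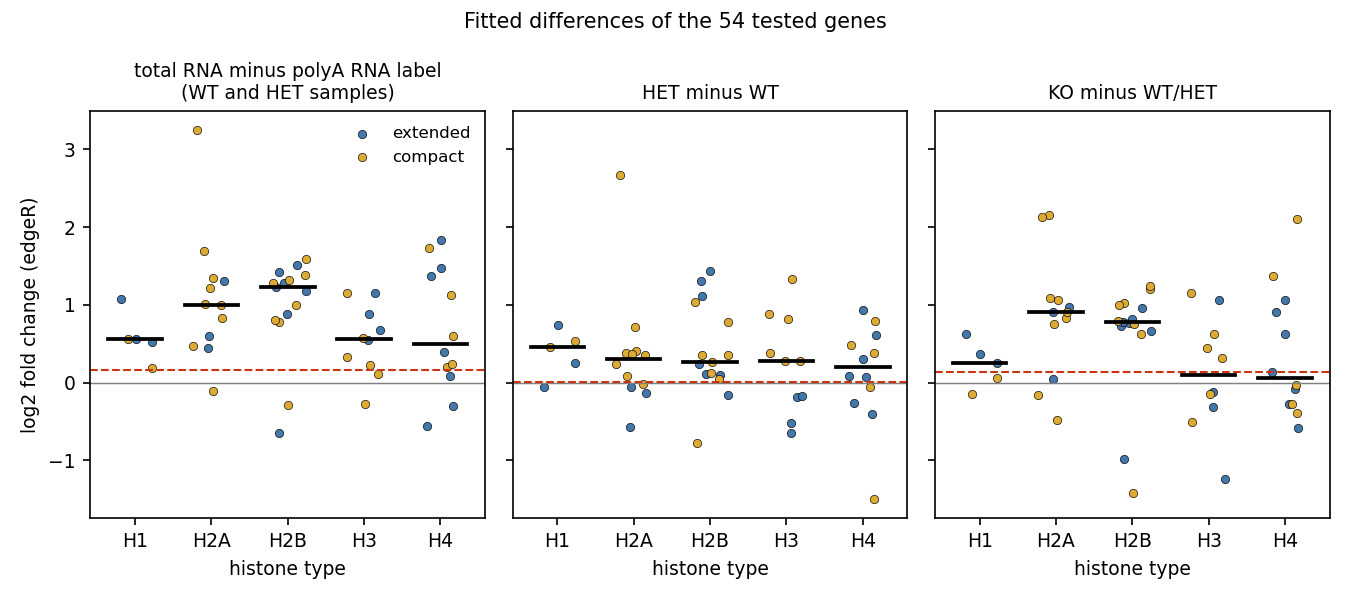
Log2 fold changes (edgeR) of the 54 tested genes by histone type in the 3 comparisons, with points for single genes, black bars for the median of a type, a grey line at 0 and a dashed line at the median of all 20610 genes. For the label the medians of all types lay between 0.50 and 1.23, for KO they were 0.91 in H2A and 0.78 in H2B and 0.05 to 0.26 in the other types, and no gene passed the thresholds in any of the 3.

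For HET against WT, with 3 libraries each and the label in the fit, edgeR called 0 members (0% of all genes) and DESeq2 0 (0.311% of all genes), and by edgeR 0 of 54 members had an unadjusted p under 0.05 in either direction, against 1.8% of all genes higher and 1.82% lower. The median log2 fold change was 0.27, against 0.00 over all genes, and 39 of 54 were above 0 (72.2%, against 50.2%). Other lists moved with HET: 9 of 10 erythroid markers were higher at an unadjusted p under 0.05 (median 1.86) and 4 of 26 S phase genes (median 0.30, 24 of 26 above 0), and their part in the histone values was not tested. The smallest p belonged to *Hist1h1b*, at 56.7, 36.8 and 33.8 CPM in HET1, HET2 and HET3 and at 29.0, 26.3 and 34.3 CPM in WT1, WT2 and WT3 (0.54 ± 0.26, edgeR, adjusted p = 0.932). HET3 was just below WT3, so that the groups overlapped. *Hist1h1c* was next, with HET1 and HET2 near 90 CPM and HET3 at the level of WT3 (0.74 ± 0.36, edgeR, adjusted p = 0.932).

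HET libraries lay above all WT libraries in 2 members (3.7%, against 4.2% of all genes) and below in 1 (1.85%, against 4.85%). The first were *Hist1h2bh*, at 2.02, 3.18 and 3.56 CPM in HET and 0.515, 1.46 and 1.46 CPM in WT, and *Hist1h3b*, picked after its values were seen, at 0.638, 0.504 and 0.771 CPM against 0.421, 0.167 and 0.208 CPM. The other was *Hist3h2a*, at 5.42, 5.85 and 3.97 CPM in HET against 10.2, 9.78 and 5.94 CPM in WT. The median of the members moved with single libraries, to 0.05 without HET1, 0.20 without WT1, 0.24 without WT2, 0.60 without WT3, 0.23 without HET2 and 0.40 without HET3. Without WT3 and HET3, a fit with 1 residual degree of freedom, in which the HET difference rests on HET1 because HET2 alone carries the polyA RNA label, called *Hist1h1b* and *Hist4h4* (3.7% of the members, against 9.53% of all genes).

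The genes that make and process histone messages were read beside them. Of 19 such genes, 0 were called in any of the 3 comparisons, and their median log2 fold change in KO was -0.12, with 0 higher and 3 lower at an unadjusted p under 0.05 (15.7% of all genes were higher and 9.48% lower at this p in KO, which also applies to the lists that follow). *Slbp*, the stem-loop binding protein, was at 309 and 379 CPM in KO and 539, 505 and 585 CPM in WT3, HET2 and HET3, with 359, 317 and 525 CPM in WT1, WT2 and HET1 (KO, -0.66 ± 0.23, edgeR, adjusted p = 0.159). *Npat*, which activates histone transcription at S phase, was at 44.97 and 49.96 CPM in KO and 34.7 to 39.6 CPM in the 3 references of the same label (0.34 ± 0.16, edgeR, adjusted p = 0.224). With WT1, WT2 and HET1 at 52.4, 45.8 and 49.1 CPM, KO lay within the range of all references. *Casp8ap2* (FLASH, a processing factor), at 104 and 98.8 CPM in KO and 97.2 to 122 CPM elsewhere, overlapped the references (-0.21 ± 0.14, edgeR, adjusted p = 0.337). *Lsm10* and *Lsm11*, proteins of the U7 snRNP, differed by -0.12 ± 0.15 and -0.23 ± 0.26 in KO (edgeR, adjusted p = 0.641 and 0.6004), and *Zfp473*, which binds the processing complex, by 0.18 ± 0.70 (edgeR, adjusted p = 0.898).

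The 26 S phase genes ran opposite in sign to the histone cluster genes in the KO and the label comparison, and had the same sign in HET against WT. Their median log2 fold change was -0.45 in KO, with 0 higher and 5 lower at an unadjusted p under 0.05, and -0.33 by label, with 1 higher and 5 lower (10.7% and 12% of all genes). Their median in HET was 0.30, with 4 higher and 0 lower (1.8% and 1.82% of all genes). The 3 comparisons share WT and HET samples. *Ccne1*, cyclin E, was at 54.4 and 162 CPM in KO, at 254, 268 and 360 CPM in WT3, HET2 and HET3 and at 88.1, 67.6 and 205 CPM in WT1, WT2 and HET1 (KO, -1.44 ± 0.57, edgeR, adjusted p = 0.173). The 20 histone chaperone genes had a median of -0.27 in KO, with 1 higher and 5 lower at an unadjusted p under 0.05. *Hat1*, which acetylates new H4, was among the lower ones (-0.96 ± 0.28, edgeR, adjusted p = 0.151). It was at 269 and 320 CPM in KO and 541, 544 and 635 CPM in the references of the same label. In WT1, WT2 and HET1 it was at 310, 246 and 483 CPM, so that KO lay within the range of all references.

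Replication-independent histone variants, most of whose messages are polyadenylated, included genes with the direction of the H2A and H2B cluster genes. Of 11, edgeR gave 4 higher and 1 lower in KO at an unadjusted p under 0.05 and called 0 (0% of all genes). *H1fx*, a linker variant, was at 97.1, 96.2 and 46.7 CPM in WT1, WT2 and HET1, at 9.17, 38.7 and 2.25 CPM in WT3, HET2 and HET3 and at 106 and 66.3 CPM in KO (2.36 ± 0.89, edgeR, adjusted p = 0.166). WT3 and HET3 were the lowest, as they were for *Hist1h2bc* and *Hist1h2bg*. *H2afy* (macroH2A) was at 695 and 539 CPM in KO and 310, 378 and 257 CPM in the references of the same label (0.97 ± 0.24, edgeR, adjusted p = 0.148). *H1f0*, a linker histone of non-dividing cells, was at 217 and 192 CPM against 93.2, 151 and 100 CPM (0.83 ± 0.23, edgeR, adjusted p = 0.148), and *H2afv* at 504 and 346 CPM against 186, 314 and 163 CPM (0.94 ± 0.32, edgeR, adjusted p = 0.155). *H2afj* was the lower one, at 67.8 and 88.6 CPM against 132, 128 and 128 CPM (-0.72 ± 0.27, edgeR, adjusted p = 0.162). For *H2afy*, *H1f0*, *H2afv* and *H2afj* the levels in WT1, WT2 and HET1 are not set beside these. *H2afx*, whose message held a stem-loop match, was at 532 and 612 CPM in KO and 485 to 753 CPM elsewhere (-0.21 ± 0.22, edgeR, adjusted p = 0.567).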

How the data were processed

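The authors deposited raw read counts per Ensembl gene and, for the same 8 samples, normalized log2 values, which their methods describe as variance-stabilized and corrected for sex. According to the methods, single-end reads were trimmed, aligned to GRCm38 allowing 1 mismatch, and uniquely mapped reads were counted by STAR. The submitters' processing notes name Trim Galore 0.6.6, STAR 2.7.8 and DESeq2 1.38.3. The strand column taken from STAR is not given in the sources used here. Uniquely mapped counting leaves out reads that near-identical histone genes share.

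Members, histone classes, stem-loops and 50-base stretches were taken from GENCODE M21 (GRCm38), where 55227 of the 55487 genes had a symbol, and promoters from RefSeq. Coordinates count from 1. Genes with fewer than 10 reads over the 8 samples were left out, which left 20610 genes and 54 of the 67 members. Counts were scaled by TMM and tested with edgeR 4.0.16 in R 4.3.3 (quasi-likelihood, legacy form), two-sided, over all genes, with sex (the molecule label) and genotype in the fit, and a gene was called where the Benjamini-Hochberg adjusted p was under 0.05 with a log2 fold change beyond 1 in size. The other settings were DESeq2 1.42.0, with apeglm 1.24.0 for KO, other scalings and filters, no covariate, other references, a replicate block and each sample left out. Fits without WT3 and HET3, and the polyA-labelled samples with each left out, were chosen after seeing the data. Both tools were tested on simulated data. The deposited log2 values were used for 1 alternative only.

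The members and lists were chosen with earlier results of these data known. The genes named in the text are the H1 members, the 12 members highest per kb, up to 5 members per direction with the smallest p in each comparison, members beyond all other samples in KO, *Slbp*, *Npat*, *Casp8ap2*, *Lsm10*, *Lsm11*, *Zfp473* and *Nfkbia*. Not all are described, and other genes named were chosen after their values were seen. The series calls its samples independent replicates, and no label ties a sample to an embryo, so that p-values measure the spread between these samples.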

Additional observations from a re-analysis of the deposited data

Results flagged for a closer look

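Among the 6 WT and HET samples, HET1 lay far from the nearest other sample for 4 histone genes and for 1 sum, measured as the gap over the whole range (Dixon's criterion). Its values were 19.0 CPM for *Hist1h1a* (the 5 others had 8.12 to 10.2 CPM), 56.7 CPM for *Hist1h1b* (26.3 to 36.8 CPM), 44.8 CPM for *Hist1h1e* (25.8 to 32.8 CPM), 0.319 CPM for *Hist1h2ah* (0 to 0.0836 CPM, a few reads) and 119 CPM for the summed compact genes (59.3 to 66.5 CPM). Of 30 sets of values examined, 5 met the criterion, where chance gives about 1 in 20, and the H1 genes enter the compact sum in part. HET1 was also the library with the most erythroid marker reads (14906 CPM), and the part of these in its H1 levels was not tested.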

How the results depend on the processing

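The medians of the members stayed above 0 in all 3 comparisons under every setting run. For KO the median log2 fold change was 0.65 and moved most without the sex covariate (0.066, median of all genes 0.00), with apeglm shrinkage (0.13), with the deposited log2 values (0.13) and in the polyA-labelled samples without KO2 (0.18). Without 1 sample it was 0.24 to 0.76 for KO, 0.05 to 0.60 for HET and 0.67 to 0.99 for the label. Calls of members were 0 in KO except 1 without HET2 (range 0 to 1), and 0 in HET except 2 without WT3 and HET3. By label they were 0, but 5 with DESeq2 (9.26%, against 8.92% of all genes) and 4 with no filter on low counts (6.56%, against 6.74%). With 1 sample left out they were 0 to 7, with 1 without HET1 (1.85%, against 7.19%) and 7 without HET2 (13.0%, against 14.55%). These shares were near or below those of all genes. Over all genes, calls in KO were 0 by edgeR and 1855 by DESeq2 (1476 with apeglm), and by label 3 and 1839; the cause was not tested. Scaling by library size alone moved the median of all genes from 0.13 to 0.41 in KO and from 0.16 to 0.40 by label, with members at 0.94 and 1.07.

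With the replicate number as a block the medians were 0.38 for KO, 0.10 for HET and 0.48 for the label, with 0 members called. Members at an unadjusted p under 0.05 went from 5 higher and 0 lower to 0 and 1 in KO, and from 10 and 0 to 1 and 1 by label, where those above 0 went from 48 to 36. Same-numbered samples did not deviate together throughout from their group means (correlations -0.35 to 0.59), but this cannot decide whether samples are paired. The deviations of KO1 and KO2 mirror each other, and WT3 and HET3, like WT1 and HET1, share a molecule label. The reporting summary says that litter mates were used where possible, but no label gives the litter. The replicate numbers were therefore not taken to pair the samples. Levels are limited by unique mapping and by overlap with other genes, most of all in the 34 members with mostly shared sequence, and by depth.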
